A study of Mus musculus with 4 samples.

Results

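The MHC class I presentation genes are the genes through which a cell shows fragments of its own proteins at its surface. The list holds 10 of the 55357 genes of the deposited matrices, chosen by name and matched by symbol, and all 10 were found: H2-K1, H2-D1, B2m, Tap1, Tap2, Tapbp, Psmb8, Psmb9, Nlrc5 and H2-T23. Their unique molecular identifier counts (UMIs, one for each captured RNA molecule) were summed per library and cell class. They come from single-cell RNA sequencing of brain hemispheres on the side of an ischemic stroke in wild-type mice, with tissue taken at day 14. All 4 groups had stroke and had hydrogel microspheres placed in the infarct cavity at day 5, so every group shares the injury and the gel. The group IL-4 C1q EV+MAPS (here IL-4 EV) received microspheres with extracellular vesicles. The groups IL-1a TNFa C1q EV+MAPS (IL-1a EV) and UT EV+MAPS (UT EV) received microspheres with other vesicles, and MAPS received microspheres alone. The design text traces the vesicles to reactive astrocytes without saying which group's astrocytes had which treatment. The first 3 are the EV libraries. The labels do not spell out UT, so what its astrocytes had received is not given here, and they give no strain, age, sex or number of animals per library. Healthy mice mentioned in the labels were not analysed here.

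Each group was 1 library, so differences have no replicate check or p-value, and the treatment, the library and its animals cannot be told apart. The libraries held 14592 barcodes in IL-4 EV, 15138 in IL-1a EV, 13076 in UT EV and 13920 in MAPS, and the median UMIs per barcode were 2462 in IL-4 EV, 2615 in IL-1a EV, 2663 in UT EV and 4541 in MAPS. MAPS stood apart: its median mitochondrial share was 1.43%, against 0.546 to 0.573% in the EV libraries. A clustering of all cells put its microglia into clusters of 1774 and 5148 cells, of which 1723 and 5048 came from MAPS. Other classes were split in the same way: 1396 of 1403 T cells of 1 cluster came from MAPS and 26 of 2279 of another, as did 638 of 644 and 34 of 3187 oligodendrocytes, 112 of 113 and 37 of 3802 endothelial cells, and 1079 of 1084 and 59 of 954 neuroblasts. In IL-1a EV no barcode held fewer than 1233 UMIs, where the minimum elsewhere was 500, and pairs of libraries shared 43 to 64 barcodes. Cells were assigned to 18 classes by 8 marker genes each, none of them a member. The 9 classes with at least 50 cells in every library were compared. The markers left 26.0% of cells unassigned in IL-4 EV, 27.3% in IL-1a EV, 23.9% in UT EV and 6.96% in MAPS. In the clustering, the largest clusters that matched no class held 3130 and 912 cells, of which 3 and 1 came from MAPS. Saa3 and Apoc1 led the first and Spp1 the second. Class levels and ratios leave out unassigned cells. Microglia numbered 4259 in IL-4 EV, 4549 in IL-1a EV, 4256 in UT EV and 6790 in MAPS, and endothelial cells 1515 in IL-4 EV, 1038 in IL-1a EV, 1268 in UT EV and 134 in MAPS. NK cells numbered 106 in IL-4 EV, 103 in IL-1a EV, 56 in UT EV and 170 in MAPS. The cluster named NK cells held 463 in IL-4 EV, 668 in IL-1a EV, 320 in UT EV and 19 in MAPS. MAPS thus had the most NK cells by markers and the fewest by clustering, so this class depends on how cells are assigned. Levels are CPM, a gene's UMIs scaled to all UMIs of the class in that library. Brackets and ranges after a ratio are 95% intervals, which cover counting error only. A ratio was called higher or lower when its interval lay entirely beyond 1.5-fold, and it was computed for genes with at least 50 UMIs in the class over both libraries.

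Class I molecules show a cell's peptides to CD8 T cells, and NK cells sense their loss. Peptides are cut by the proteasome, moved into the endoplasmic reticulum by the TAP transporter, and loaded onto a heavy chain paired with beta-2 microglobulin. In the healthy brain the pathway is kept low in neurons and glia, and interferons induce nearly all of its genes. The heavy chains here are H2-K1 (ENSMUSG00000061232), H2-D1 (ENSMUSG00000073411) and H2-T23 (ENSMUSG00000067212), which encodes Qa-1, a ligand of the NKG2 receptors of NK cells. B2m (ENSMUSG00000060802) encodes the light chain. Tap1 (ENSMUSG00000037321) and Tap2 (ENSMUSG00000024339) encode the transporter, and Tapbp (ENSMUSG00000024308) encodes tapasin, which holds an empty heavy chain at the transporter. Psmb8 (ENSMUSG00000024338) and Psmb9 (ENSMUSG00000096727) encode immunoproteasome subunits, and Nlrc5 (ENSMUSG00000074151) the transactivator of class I promoters. Reads of H2-K1, H2-D1 and the H2-Q genes can be split between near-identical copies, so the separate levels of the heavy chains are uncertain to that extent.

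The promoters of the 2 classical heavy chains and of the light chain are shown because their levels are set side by side below, and that of Tap1 because its gene sits next to 2 other members. Sequences are from RefSeq (build GRCm38.p6, while the submitters' processing notes name GRCm39 for the counts), 200 bases ending 1 base before the start, 5′ to 3′ on the gene's strand. Capitals mark GGGGATTCCCC (kappaB, with its letters read from the H2-K1 promoter), GAANNGAAA (a short interferon regulatory factor element) or 2 copies of GAAA 2 bases apart (the interferon-stimulated response element, whose letters do not hold the short one), each searched on both strands.
H2-K1: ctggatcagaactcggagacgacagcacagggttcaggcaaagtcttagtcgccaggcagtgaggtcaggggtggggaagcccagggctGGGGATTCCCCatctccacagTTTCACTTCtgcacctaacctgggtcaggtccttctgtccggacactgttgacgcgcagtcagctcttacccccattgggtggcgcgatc
H2-D1: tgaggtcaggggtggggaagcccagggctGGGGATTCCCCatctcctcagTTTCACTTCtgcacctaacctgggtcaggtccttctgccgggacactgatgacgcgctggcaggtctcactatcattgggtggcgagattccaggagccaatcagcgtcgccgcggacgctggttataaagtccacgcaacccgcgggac
B2m: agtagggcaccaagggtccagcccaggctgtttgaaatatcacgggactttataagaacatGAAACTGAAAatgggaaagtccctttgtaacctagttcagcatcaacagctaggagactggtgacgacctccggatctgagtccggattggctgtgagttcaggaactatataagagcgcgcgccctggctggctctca
Tap1: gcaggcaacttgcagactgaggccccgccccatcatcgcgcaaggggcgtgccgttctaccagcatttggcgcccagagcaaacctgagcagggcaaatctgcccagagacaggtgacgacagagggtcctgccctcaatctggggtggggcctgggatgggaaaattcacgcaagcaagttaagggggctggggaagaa
They lie at chr17:34000348-34000547 (minus strand), chr17:35262894-35263093 (plus), chr2:122147487-122147686 (plus) and chr17:34187356-34187555 (plus). H2-K1 had the kappaB letters 111 to 101 bases upstream of its start and the short element, on the other strand, 90 to 82 bases upstream. H2-D1 had the same pair 171 to 161 and 150 to 142 bases upstream. B2m had the response element letters 139 to 130 bases upstream, and the Tap1 stretch held none of the 3. Over 300-base windows of 27025 genes, the kappaB letters were in 0.0333% (9 genes), the response element in 3.99% and the short element in 8.68%. Of the 8 members with a promoter entry, H2-D1 held the kappaB letters as well as H2-K1, from which they were taken. The short element, whose letters were chosen after seeing these promoters, was in the same pair, and the response element was in B2m and H2-T23. The letters TTCNNNGAA (GAS) were in Psmb8 and in 9.55% of genes, and CCAAT in 7 of the 8 and in 41.1% of genes. Tap1 and Psmb9 lie head to head, and their windows share 275 of 300 bases. In gene order on chromosome 17, Psmb9, Tap1, Psmb8 and Tap2 are neighbours.

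All 10 genes were detected in all 4 libraries. H2-K1 stood at 1614 CPM in T cells of IL-4 EV, 1164 in IL-1a EV, 1359 in UT EV and 3569.9 in MAPS. In microglia it had 943 CPM in IL-4 EV, 927 in IL-1a EV, 889 in UT EV and 1804 in MAPS. In neuroblasts it had 57.3 CPM in IL-4 EV, 89.8 in IL-1a EV, 128 in UT EV and 129 in MAPS. T or NK cells were the highest class for H2-K1 in all 4 libraries, with microglia, endothelial cells and ependymal cells next in that order, and the highest class was 28.2-fold above the lowest in IL-4 EV, 14.0-fold in IL-1a EV, 12.9-fold in UT EV and 31.6-fold in MAPS. H2-D1 stood at 1793 CPM in microglia of IL-4 EV, 1996 in IL-1a EV, 1992 in UT EV and 2194 in MAPS. Microglia were its highest class in IL-1a EV and UT EV, and NK cells in IL-4 EV and MAPS. B2m stood at 1470.3 CPM in microglia of IL-4 EV, 1502 in IL-1a EV, 1411 in UT EV and 3493 in MAPS. Microglia, T cells, NK cells and endothelial cells were its 4 highest classes, in that order, in all 4 libraries. Of the 8 pairs of neighbouring classes in each order, the H2-K1 intervals overlapped in 3 in IL-4 EV, 3 in IL-1a EV, 4 in UT EV and 0 in MAPS.

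Psmb8 and Psmb9 spanned a wider range of classes than H2-K1, H2-D1, B2m and H2-T23 in each library. Psmb8 stood at 1566 CPM in T cells of IL-4 EV, 1514 in IL-1a EV, 1443 in UT EV and 544 in MAPS. T cells were the highest class and NK cells the next for both Psmb8 and Psmb9 in all 4 libraries, and the highest class for Psmb8 was 24.5- to 76.2-fold above the lowest. H2-T23 stood at 476 CPM in endothelial cells of IL-4 EV, 202 in IL-1a EV, 339 in UT EV and 141 in MAPS. Endothelial cells were its highest class in the 3 EV libraries, while T cells were highest in MAPS. For the sparsely counted Tap1, Tap2, Tapbp and Nlrc5 the intervals of neighbouring classes overlapped in 7 or 8 of 8 pairs in the EV libraries, so their order of classes was not resolved. Nlrc5 had no UMI in neuroblasts of IL-4 EV or choroid plexus cells of UT EV, and Tap2 none in neuroblasts of IL-1a EV. Together the 10 genes made up 0.551% of microglial UMIs in IL-4 EV, 0.554% in IL-1a EV, 0.543% in UT EV and 0.833% in MAPS. In T cells they made up 0.740% in IL-4 EV, 0.618% in IL-1a EV, 0.665% in UT EV and 1.07% in MAPS, and in neuroblasts 0.0466% in IL-4 EV, 0.0742% in IL-1a EV, 0.0720% in UT EV and 0.0529% in MAPS.

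**Figure D1:**
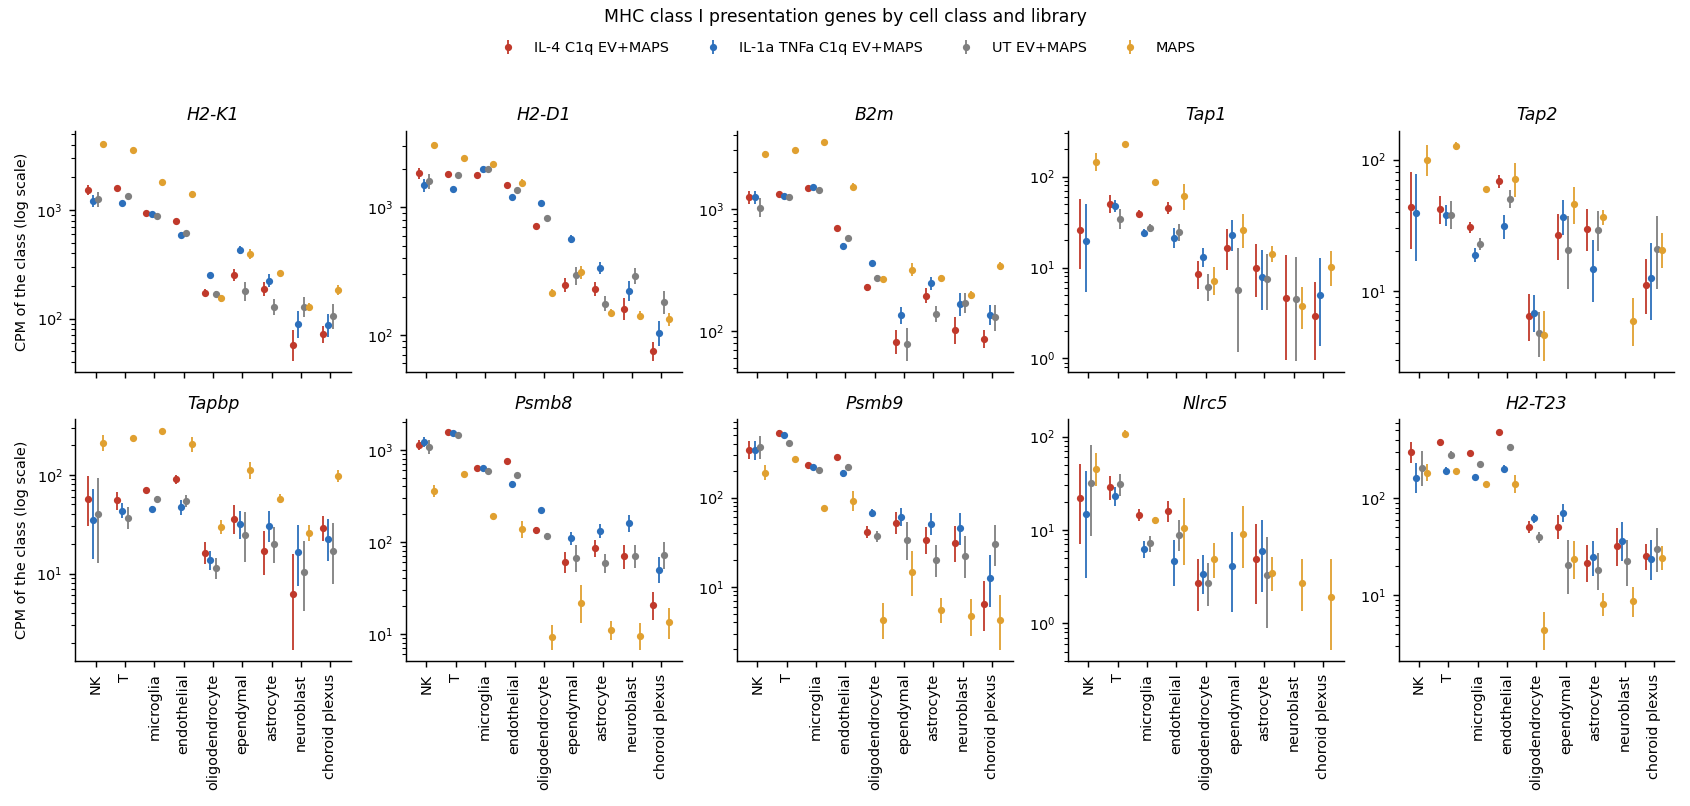
Level of each of the 10 genes (CPM, log axis) in 9 cell classes, with 1 point and 95% counting interval per library, drawn where the class had at least 3 UMIs of the gene. Lymphocytes, microglia and endothelial cells lie above the neural and epithelial classes for H2-K1, H2-D1, B2m and Psmb8, and H2-K1 in T cells was 1614 CPM in IL-4 EV and 3569.9 CPM in MAPS.

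A class and its libraries also differed in which heavy chain led. H2-K1 made up 34.5% [34.0 to 35.0] of the H2-K1 and H2-D1 UMIs in microglia of IL-4 EV, 31.7% [31.3 to 32.2] in IL-1a EV, 30.8% [30.4 to 31.3] in UT EV and 45.1% [44.9 to 45.4] in MAPS. The share was highest in MAPS, and those of IL-4 EV and the other EV libraries did not overlap. In oligodendrocytes, the myelin-forming cells, the share was 19.5% [18.2 to 20.8] in IL-4 EV, 18.8% [17.9 to 19.7] in IL-1a EV, 17.1% [16.2 to 18.1] in UT EV and 41.8% [39.5 to 44.2] in MAPS. The EV libraries lay close together there and MAPS lay apart. T cells held 47.0% in IL-4 EV, 45.7% in IL-1a EV, 43.4% in UT EV and 59.6% in MAPS. The share was higher in MAPS than in each EV library in all 9 classes.

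**Figure D2:**
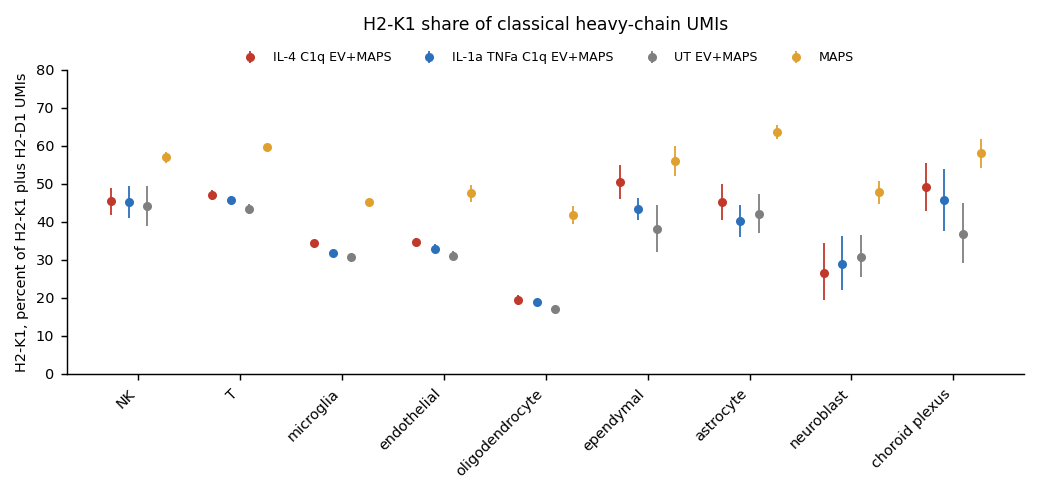
H2-K1 UMIs as a percentage of H2-K1 plus H2-D1 UMIs in 9 cell classes (x axis), with 1 point per library and exact 95% binomial intervals. In each class the MAPS point is the highest, with 45.1% in microglia against 30.8 to 34.5% in the EV libraries.

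The immunoproteasome replaces the constitutive subunits Psmb5, Psmb6 and Psmb7 by Psmb8, Psmb9 and Psmb10. Psmb8 made up 79.3% [78.5 to 80.1] of the Psmb8 and Psmb5 UMIs in microglia of IL-4 EV, 78.1% [77.4 to 78.9] in IL-1a EV, 76.6% [75.8 to 77.4] in UT EV and 80.7% [79.9 to 81.5] in MAPS. In endothelial cells it made up 67.1% [65.7 to 68.4] in IL-4 EV, 52.6% [50.6 to 54.6] in IL-1a EV, 59.2% [57.4 to 60.9] in UT EV and 68.9% [60.3 to 76.7] in MAPS. Thus the 3 EV libraries had non-overlapping shares in endothelium, with IL-4 EV highest and IL-1a EV lowest. In oligodendrocytes it made up 23.6% [21.9 to 25.4] in IL-4 EV, 32.5% [31.0 to 34.0] in IL-1a EV, 20.4% [19.0 to 21.8] in UT EV and 8.94% [6.57 to 11.8] in MAPS. There IL-1a EV was highest and MAPS lowest, and no 2 of the 4 intervals overlapped. Psmb9 made up 43.9% [42.7 to 45.1] of the Psmb9 and Psmb6 UMIs in microglia of IL-4 EV, 37.7% [36.6 to 38.7] in IL-1a EV, 38.0% [36.9 to 39.1] in UT EV and 37.0% [35.9 to 38.0] in MAPS. Only IL-4 EV stood above the other 3 libraries. These shares set 2 genes of unequal length and capture against each other, so they do not rank protein subunits. Psmb8 and Psmb5 have 1628 and 899 bases, and ratios between some libraries followed transcript length, as given below. The part of length in the orders of libraries was not tested. Psmb10 made up 81.3% of the Psmb10 and Psmb7 UMIs in microglia of IL-4 EV, 80.8% in IL-1a EV, 78.6% in UT EV and 59.0% in MAPS. MAPS was thus lowest for this pair, where it was highest for Psmb8, and in T cells the Psmb10 share was 83.6% in IL-4 EV, 83.3% in IL-1a EV, 82.5% in UT EV and 67.0% in MAPS.

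**Figure D3:**
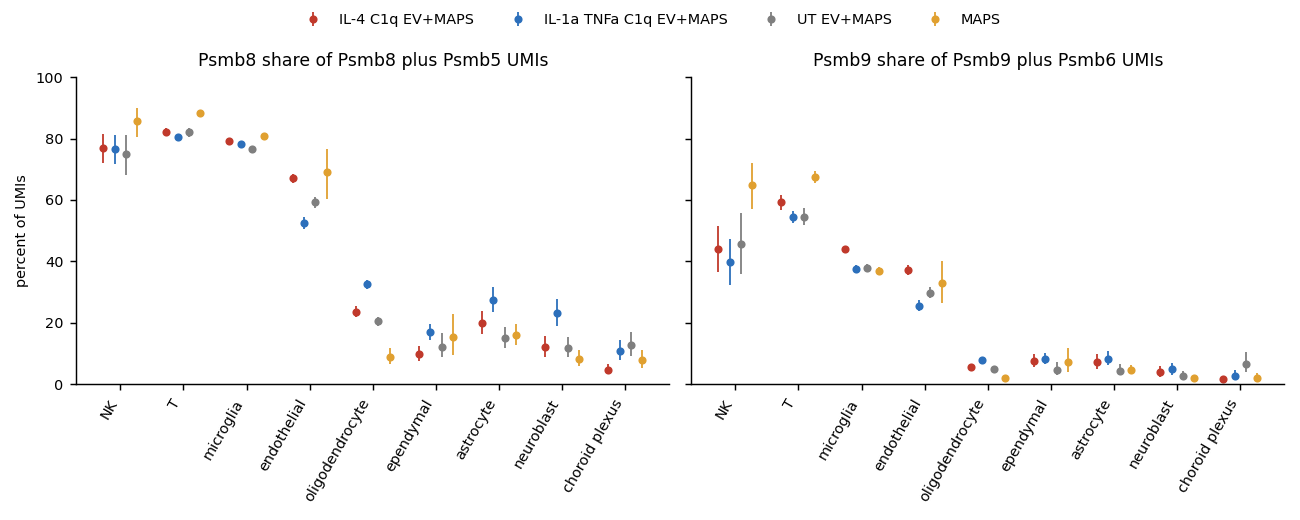
Immunosubunit UMIs as a percentage of immunosubunit plus constitutive UMIs in 9 cell classes, with 1 point per library and exact 95% binomial intervals. In endothelial cells the Psmb8 share was 67.1% in IL-4 EV, 52.6% in IL-1a EV and 59.2% in UT EV.

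The design sets the vesicles of IL-4 EV and IL-1a EV against those of UT EV, and against each other. These comparisons and that of IL-4 EV over IL-1a EV share libraries, so their counts are not independent. Of 90 pairs of a gene and a class, IL-4 EV over UT EV could be computed in 67, of which 51 lay above 1, 1 was called higher and 3 lower. Over all genes and the same classes 0.645% were called higher and 0.511% lower. For IL-1a EV over UT EV, 37 of 67 pairs lay above 1, 9 were called higher and 1 lower, against 0.593% and 0.579% of all genes. For IL-4 EV over IL-1a EV, 35 of 68 pairs lay above 1, 9 were called higher and 4 lower, against 1.03% and 0.609%. By class, the share of all genes above 1 was 38.6 to 54.6% in IL-4 EV over UT EV. It was 27.6 to 57.3% in IL-1a EV over UT EV and 49.8 to 63.0% in IL-4 EV over IL-1a EV. UT EV over MAPS, vesicles in microspheres against microspheres alone, is described last.

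In microglia Nlrc5 was called higher in IL-4 EV over both other EV libraries, and H2-T23 over IL-1a EV only, while H2-K1, H2-D1 and B2m had ratios near 1. H2-K1 was at 1.06 times UT EV and B2m at 1.04 times, and H2-D1 had 1793 CPM in IL-4 EV and 1992 in UT EV. Nlrc5 stood at 14.6 CPM in IL-4 EV, 6.25 in IL-1a EV, 7.17 in UT EV and 12.6 in MAPS. IL-4 EV was the highest of the EV libraries, at 2.04 times UT EV [1.59 to 2.61] and 2.33 times IL-1a EV [1.80 to 3.04], both called higher. H2-T23 stood at 291 CPM in IL-4 EV, 166 in IL-1a EV, 224 in UT EV and 140.3 in MAPS. Again IL-4 EV was highest, at 1.75 times IL-1a EV [1.66 to 1.85], called higher, and 1.30 times UT EV [1.24 to 1.36], not called. Tap1 stood at 39.0 CPM in IL-4 EV, 24.1 in IL-1a EV, 27.5 in UT EV and 87.3 in MAPS. It was 1.62 times IL-1a EV [1.41 to 1.86] and 1.42 times UT EV [1.24 to 1.63], neither called. Tap2 and Tapbp were 1.34 and 1.21 times UT EV and 1.62 and 1.54 times IL-1a EV, also not called. Of the 10 genes, 1 was called higher over UT EV, where 0.961% of all genes were, and 2 over IL-1a EV, where 1.61% were. The members' median log2 ratio over UT EV was 0.22, against -0.06 for all genes, and over IL-1a EV 0.34 against 0.09. Psmb8 was at 1.06 times UT EV and 0.995 times IL-1a EV.

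Endothelial cells, the lining of vessels, had the broadest difference between IL-4 EV and IL-1a EV. All 10 genes were higher in value in IL-4 EV and 6 were called higher, where 2.12% of all genes were. H2-T23 stood at 476 CPM in IL-4 EV, 202 in IL-1a EV and 339 in UT EV, and IL-4 EV was 2.36 times IL-1a EV [2.15 to 2.59]. Psmb8 stood at 749 CPM in IL-4 EV, 430 in IL-1a EV, 532 in UT EV and 138 in MAPS. IL-4 EV was highest and MAPS lowest, with 1.74 times IL-1a EV [1.63 to 1.86]. Tap1 stood at 45.2 CPM in IL-4 EV, 21.1 in IL-1a EV, 24.5 in UT EV and 60.5 in MAPS. It was 2.14 times IL-1a EV [1.60 to 2.89], called, and 1.85 times UT EV [1.42 to 2.42], not called. The other calls over IL-1a EV were Tap2 at 2.20 [1.73 to 2.81], Tapbp at 1.93 [1.58 to 2.35] and Nlrc5 at 3.46 [1.92 to 6.69]. Psmb9 was just outside the threshold at 1.53 [1.38 to 1.69], and H2-K1, H2-D1 and B2m were at 1.33, 1.23 and 1.40 times IL-1a EV. The members' median log2 ratio was 0.87, against 0.08 for all genes. Over UT EV, all 10 genes of IL-4 EV lay above 1 and none was called, where 0.941% of all genes were, with a median of 0.47 against -0.01. IL-1a EV lay below UT EV in 9 of 9 computed genes, and H2-T23 was called lower at 0.596 times UT EV [0.539 to 0.658], where 0.934% of all genes were.

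The libraries also differed with transcript length, a split added after seeing the data. Genes of the top length quartile had a median log2 ratio of IL-4 EV over IL-1a EV of 0.22 in microglia and 0.22 in endothelial cells. In the bottom quartile it was -0.12 and -0.15. The longest protein-coding transcripts of Nlrc5, Tap1, Tap2 and Tapbp have 7578, 2953, 3442 and 2898 bases, and those of H2-T23 and Psmb8 1472 and 1628 (GENCODE M21). The part of length in these ratios was not tested. IL-4 EV over UT EV was nearly flat with length, with -0.03 for the top and -0.10 for the bottom quartile in microglia. IL-1a EV over UT EV fell with length, with -0.25 for the top and 0.08 for the bottom quartile in oligodendrocytes. The same values were -0.21 and 0.14 in astrocytes and -0.16 and 0.09 in ependymal cells. Psmb8 and Psmb9, called higher in that comparison, have 1628 and 1352 bases, and the part of length was not tested there either.

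In T cells all 10 genes were higher in value in IL-4 EV than in IL-1a EV, with a median log2 ratio of 0.22 against 0.05 for all genes. H2-T23 stood at 375 CPM in IL-4 EV, 191 in IL-1a EV, 277 in UT EV and 190.2 in MAPS. IL-4 EV was highest, and at 1.96 times IL-1a EV [1.75 to 2.20] it was the 1 gene called higher in T cells, where 1.03% of all genes were. In NK cells H2-T23 was 1.82 times IL-1a EV [1.18 to 2.85], which was not called.

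Oligodendrocytes had the other order of libraries. Psmb8 stood at 134 CPM in IL-4 EV, 223 in IL-1a EV, 114 in UT EV and 9.29 in MAPS. IL-1a EV was the highest library, at 1.95 times UT EV [1.78 to 2.15], called higher. Psmb9 stood at 41.3 CPM in IL-4 EV, 68.0 in IL-1a EV, 36.7 in UT EV and 4.22 in MAPS, and IL-1a EV was 1.85 times UT EV [1.56 to 2.20], also called. H2-D1 stood at 717 CPM in IL-4 EV, 1079.6 in IL-1a EV, 825 in UT EV and 214 in MAPS. It was 1.31 times UT EV [1.26 to 1.36] in IL-1a EV, and H2-K1 and B2m were at 1.47 [1.35 to 1.60] and 1.33, none of them called. All 9 computed genes lay above 1 and 2 were called, where 0.543% of all genes were, with a median log2 ratio of 0.56 against -0.12. Over IL-1a EV, 8 of 9 genes of IL-4 EV lay below 1, and Psmb8 was called lower at 0.601 [0.542 to 0.665], where 0.490% of all genes were. C1qa, a microglial gene, stood at 726 CPM in oligodendrocytes of IL-4 EV, 840.3 in IL-1a EV, 807 in UT EV and 244 in MAPS, while microglia had 16569 in IL-4 EV, 17490.2 in IL-1a EV, 15311 in UT EV and 8474 in MAPS. Microglial RNA at that C1qa level would carry 8.88 to 19.9% of the H2-K1, H2-D1, B2m and Psmb8 levels of IL-1a EV and 12.7 to 27.5% of those of UT EV.

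In ependymal cells, which line the ventricles, each computed gene was higher in value in IL-1a EV than in UT EV. H2-K1 stood at 252 CPM in IL-4 EV, 432 in IL-1a EV, 180.0 in UT EV and 395 in MAPS. IL-1a EV was 2.40 times UT EV [1.93 to 3.01]. H2-D1 stood at 248 CPM in IL-4 EV, 565 in IL-1a EV, 293 in UT EV and 309.6 in MAPS, and IL-1a EV was 1.93 times UT EV [1.62 to 2.31]. H2-T23 stood at 51.0 CPM in IL-4 EV, 70.9 in IL-1a EV, 20.6 in UT EV and 23.9 in MAPS, and IL-1a EV was 3.44 times UT EV [1.83 to 7.13]. These 3 were called higher of 8 computed, all above 1, where 0.769% of all genes were, with a median log2 ratio of 0.84 against -0.01. In IL-4 EV over IL-1a EV, H2-D1 was called lower at 0.438 [0.377 to 0.508], where 0.815% of all genes were. The class had 178 cells in IL-4 EV, 198 in IL-1a EV, 108 in UT EV and 86 in MAPS, and microglial RNA at its C1qa level would carry 8.30 to 42.9% of the 4 levels in IL-1a EV and 15.9 to 57.7% in UT EV.

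**Figure D4:**
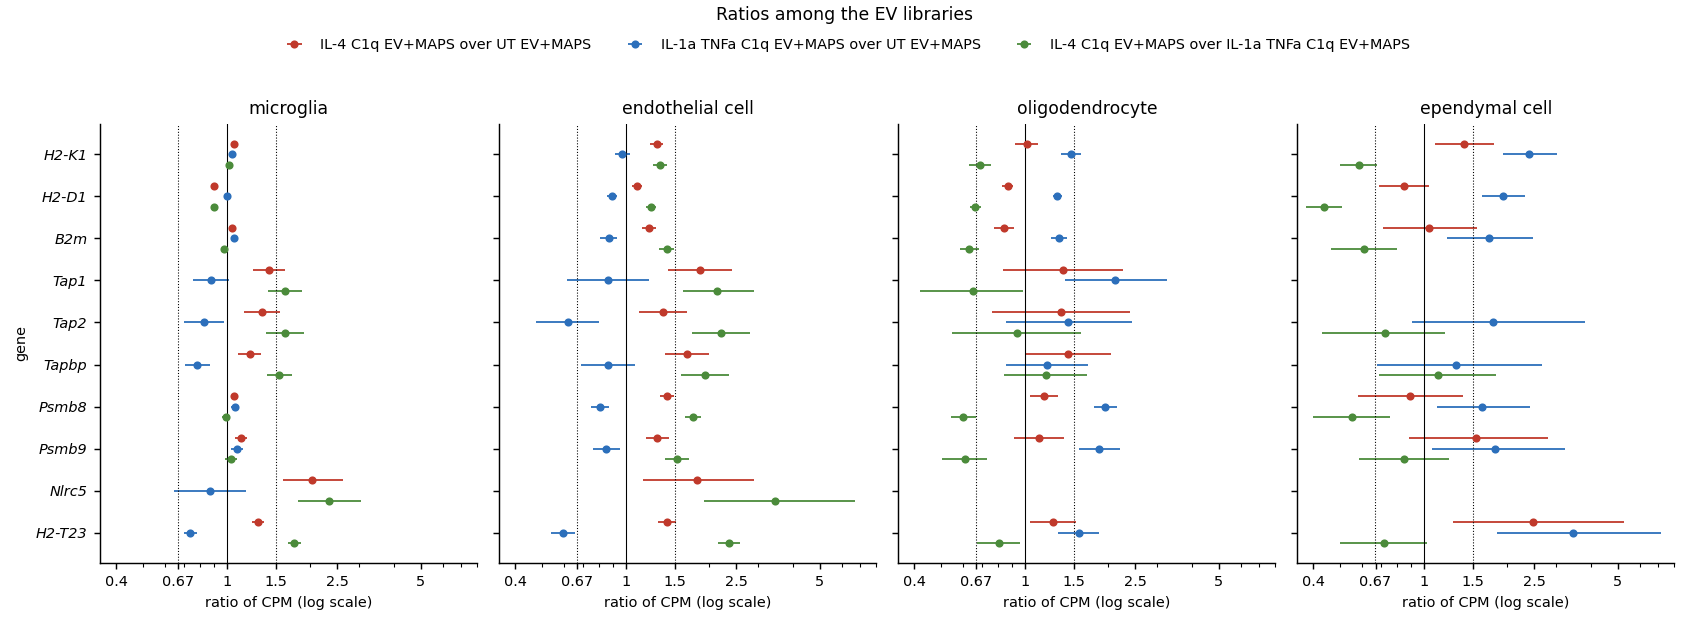
Ratio of libraries (log axis) for each of the 10 genes in microglia, endothelial cells, oligodendrocytes and ependymal cells, with 95% counting intervals and dotted lines at 1.5 and 1/1.5. Endothelial H2-T23 was at 2.36 for IL-4 EV over IL-1a EV, while oligodendrocyte Psmb8 was at 0.601 for the same comparison.

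Astrocytes, neuroblasts and choroid plexus cells gave the remaining calls, at low levels. Astrocyte Psmb8 stood at 85.9 CPM in IL-4 EV, 132 in IL-1a EV, 58.8 in UT EV and 11.0 in MAPS. It was called higher in IL-1a EV over UT EV at 2.25 [1.67 to 3.04], as were H2-D1 at 1.90 [1.60 to 2.26] and Psmb9 at 2.58 [1.56 to 4.37], where 1.31% of all genes were. With classes taken from clustering, the 3 astrocyte ratios were 1.03 for Psmb8, 1.15 for H2-D1 and 1.14 for Psmb9, and none was called. Cd74, the class II invariant chain, stood at 791 CPM in astrocytes of IL-1a EV, against 99.7 in IL-4 EV, 114 in UT EV and 40.6 in MAPS, and microglial RNA at the C1qa level would carry 30.3 to 44.8% of the 4 levels in IL-1a EV. Neuroblast Psmb8 was called higher at 2.27 times UT EV in IL-1a EV [1.57 to 3.31], where 0.57% of all genes were, and was 1.14 times with clustered classes. Neuroblast H2-K1 was called lower in IL-4 EV at 0.445 times UT EV [0.294 to 0.662], where 0.795% of all genes were, but was 0.602 times with clustered classes and 0.724 times with doublets kept, not called in either. Microglial RNA at the C1qa level of neuroblasts would carry 37.6 to 68.6% of the 4 levels in IL-4 EV and 71.7 to 87.2% in UT EV. Choroid plexus H2-D1 stood at 74.6 CPM in IL-4 EV, 104 in IL-1a EV, 181 in UT EV and 133 in MAPS, and IL-4 EV was called lower than UT EV at 0.411 [0.313 to 0.542], as was Psmb8 at 0.286 [0.176 to 0.466], where 1.34% of all genes were. Neither call held with clustered classes, at 0.612 for H2-D1 and 0.433 for Psmb8, or with doublets kept, at 0.620 for H2-D1 and 0.519 for Psmb8. Microglial RNA at the C1qa level of choroid plexus cells would carry 22.4 to 52.3% of the 4 levels in IL-4 EV and 32.1 to 43.0% in UT EV. The part of microglial RNA in these ratios was not tested.

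The transporter and tapasin genes had no call in IL-4 EV over UT EV in the 9 classes. Tap1 lay above 1 in IL-4 EV over UT EV in 4 of 4 computed classes, at 1.38 to 1.85 times, Tap2 in 5 of 5 at 1.02 to 1.36 and Tapbp in 5 of 5 at 1.21 to 1.69, where 51 of 67 pairs of all members lay above 1. In IL-4 EV over IL-1a EV, Tap1 lay above 1 in 3 of 4 classes with a lowest ratio of 0.649, Tap2 in 3 of 5 with a lowest of 0.723, and Tapbp in 6 of 6. B2m had no call in the 3 comparisons among EV libraries. Most H2-K1 UMIs of the gated cells came from microglia, which held 52.8% in IL-4 EV, 55.4% in IL-1a EV, 62.8% in UT EV and 70.0% in MAPS. Endothelial cells held 24.7% of H2-T23 UMIs in IL-4 EV, 13.2% in IL-1a EV, 20.3% in UT EV and 1.27% in MAPS, where that class had 134 cells. The gate left out 23.9 to 27.3% of cells in the EV libraries and 6.96% in MAPS, so these shares do not compare libraries.

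Other genes of the pathway are given by list, beside 0.645% of all genes called higher in IL-4 EV over UT EV and 0.593% in IL-1a EV over UT EV. In IL-4 EV over UT EV, over the 9 classes, 1 of 33 computed pairs of the 16 other class I genes was called higher, 1 of 31 of the 5 peptide loading genes, and none of 26 each of the immunoproteasome and activator genes and of the constitutive subunits. No pair of these lists was called lower. In IL-1a EV over UT EV, 2 of 38 pairs of the other class I genes were called higher, both H2-Q7, which was 1.87 times UT EV in oligodendrocytes [1.55 to 2.26]. Calr, a loading chaperone, stood at 301 CPM in oligodendrocytes of IL-4 EV, 174 in IL-1a EV, 181 in UT EV and 400.2 in MAPS, and IL-4 EV was 1.66 times UT EV [1.53 to 1.81]. Of the receptors that read class I, Cd8a in T cells stood at 116 CPM in IL-4 EV, 81.6 in IL-1a EV, 57.0 in UT EV and 520.1 in MAPS, and IL-4 EV was 2.04 times UT EV [1.60 to 2.62], called higher, where 0.706% of all genes were. The T cell class was not split into subsets. Cd8a was among the leading genes of the T cell cluster with 1396 of 1403 cells from MAPS. Il17a led the cluster with 26 of 2279 from MAPS. The part of subset shares in the Cd8a levels was not tested.

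Interferon-induced genes had larger ratios than the class I genes in the same cells, though their list was chosen with earlier results of these data known. Of 12 such genes, 12 were called higher in microglia of IL-4 EV over UT EV, where 0.961% of all genes were. Their median log2 ratio was 2.01. In the comparison with IL-1a EV, 12 were called higher, where 1.61% of all genes were, with a median of 2.88. Isg15, an interferon-induced ubiquitin-like protein, stood at 421 CPM in microglia of IL-4 EV, 85.1 in IL-1a EV, 109.7 in UT EV and 37.9 in MAPS. In endothelial cells, 9 of 12 were called higher in IL-4 EV over UT EV, where 0.941% of all genes were. In IL-1a EV over UT EV, 10 of 12 were called lower there, where 0.934% of all genes were. In ependymal cells, 7 of 9 were called higher in IL-1a EV over UT EV, where 0.769% of all genes were. The median of the 9 was 1.82, where the class I genes had 0.84. Of the 7 class II genes, 4 of 6 computed in microglia were called lower in IL-4 EV over UT EV, with a median of -0.79, where 0.551% of all genes were.

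The cells of 1 library also differed among themselves when each was thinned to 1000 UMIs. In microglia, 58.9% of cells in IL-4 EV held at least 3 UMIs of the 12 interferon-induced genes, against 7.43% in IL-1a EV, 8.52% in UT EV and 4.74% in MAPS. Such microglia held 0.308 H2-T23 UMIs per cell in IL-4 EV, 0.207 in IL-1a EV, 0.326 in UT EV and 0.294 in MAPS. Microglia with none of those UMIs held 0.226 in IL-4 EV, 0.148 in IL-1a EV, 0.191 in UT EV and 0.109 in MAPS. The first kind of cell held more H2-T23 in each library. In oligodendrocytes, 37 cells of IL-4 EV and 45 of IL-1a EV held at least 3, with 3.59 UMIs of H2-K1, H2-D1 and B2m per cell in IL-4 EV and 5.40 in IL-1a EV, and cells with none held 0.662 in IL-4 EV and 1.17 in IL-1a EV. Those cells also held more C1qa, 2.43 UMIs per cell in IL-4 EV and 1.36 in IL-1a EV where cells with none held 0.293 in IL-4 EV and 0.524 in IL-1a EV, and its part was not tested.

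UT EV and MAPS differed over many genes, with UT EV and MAPS cells of most classes in different clusters. The median ratio of all genes was 0.478 in microglia, 0.558 in T cells, 0.635 in endothelial cells and 0.613 in oligodendrocytes, and 0.478 to 0.701 over the 9 classes. By class, 21.1 to 34.8% of all genes lay above 1. Of 75 computed pairs, 18 were called higher in UT EV and 30 lower, against 9.0% and 34.5% of all genes, and a TMM scaling gave 27 and 16. Psmb8 stood at 590 CPM in microglia of UT EV and 190 in MAPS, a ratio of 3.11 [3.01 to 3.21]. It was called higher in UT EV in 9 of 9 classes, by 2.65 to 12.3 times, and H2-T23 lay above 1 in 8 of 8. Tapbp stood at 57.3 CPM in microglia of UT EV and 275 in MAPS, a ratio of 0.208 [0.194 to 0.223]. It was below 1 in 9 of 9 classes, by 0.157 to 0.405 times, and in 9 of 9 also with TMM. B2m stood at 1411 CPM in UT EV and 3493 in MAPS, or 0.404 times, and the ratio was 0.717 with TMM, which was not called. H2-K1 was below 1 in 8 of 9 classes, where most genes of each class were, and in 7 with TMM. H2-D1 was below 1 in 5 of 9 classes and in 1 with TMM, so its direction depends on the scaling.

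The constitutive subunits went the way of Psmb8 and Psmb9. Psmb5 stood at 179.9 CPM in microglia of UT EV and 45.3 in MAPS, a ratio of 3.97 [3.73 to 4.22]. Over the 9 classes, 19 of 26 pairs of the constitutive subunits were called higher, where 9.0% of all genes were. Of the 5 peptide loading genes, 24 of 37 pairs were called lower, where 34.5% of all genes were, and this count was not recomputed with TMM. The ratio also followed transcript length, with a median log2 ratio of 0.14 in the bottom length quartile of genes in microglia and -1.40 in the top. Psmb8, Psmb9 and Psmb5 have 1628, 1352 and 899 bases and Tapbp 2898, while B2m, at 0.404 times without TMM, has 860. The part of length was not tested.

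**Figure D5:**
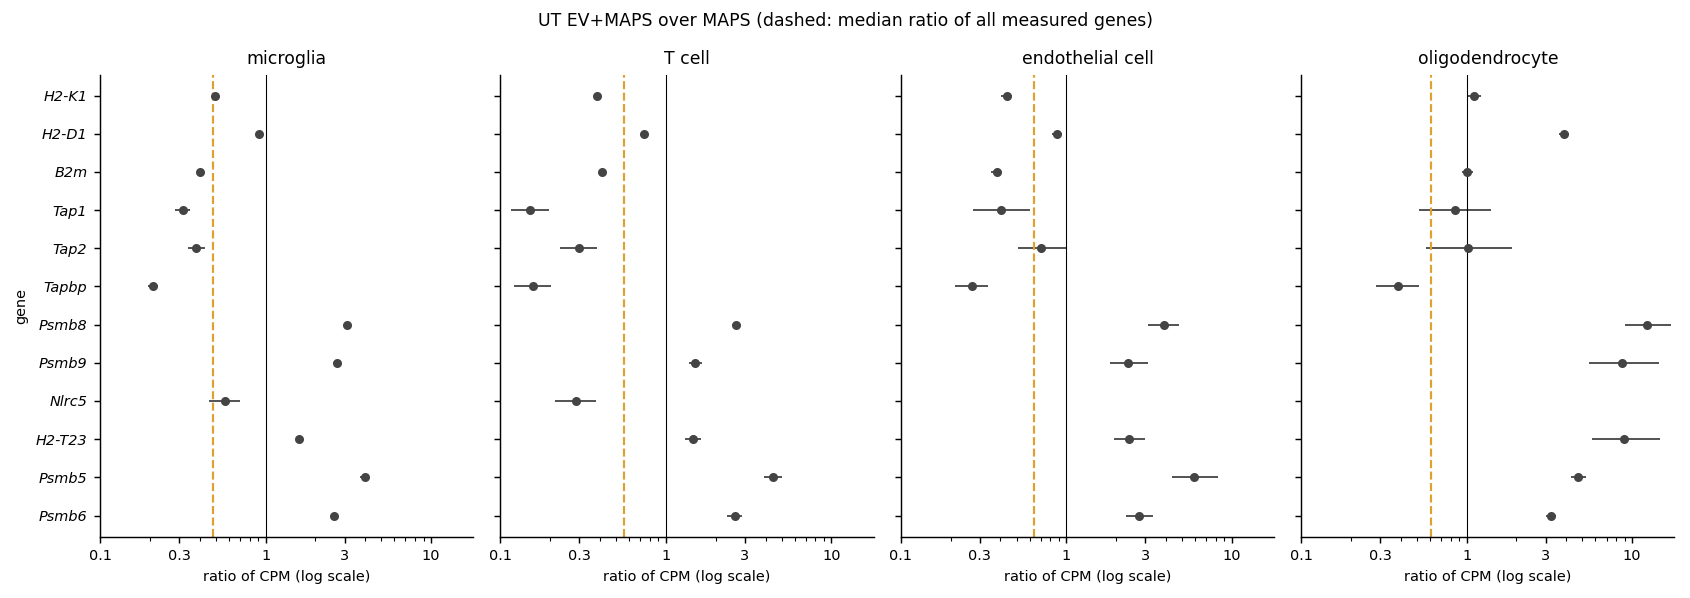
Ratio of UT EV over MAPS (log axis) for the 10 genes and the constitutive subunits Psmb5 and Psmb6 in microglia, T cells, endothelial cells and oligodendrocytes, with 95% counting intervals and a dashed line at the median ratio of all genes. Psmb8 lies above 1 and Tapbp below 1 in each panel, with 3.11 and 0.208 in microglia.

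The genes whose levels were most like the members' mean log2(CPM + 10) were found over 36 points, the 9 classes in 4 libraries, among 12518 genes. H2-Q4 had a Pearson correlation of 0.977, Irf1 0.972, Gvin-ps7 0.955, Sp140 0.940 and Srgn 0.937. After each class's mean was taken out, the closest were H2-Q4 at 0.801, Igtp at 0.799, Gbp2 at 0.756, Gm15500 at 0.735 and Iigp1 at 0.725. Among the members, Psmb8 and Psmb9 had 0.985, and 0.973 after the class mean was taken out, where Psmb8 and Tapbp had -0.725. The points share libraries and depth, and MAPS lies apart in them, so these are descriptions.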

How the data were processed

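The 4 single-cell libraries (10x 3′ chemistry, per the labels) came as UMI count matrices deposited by the authors, made with Cell Ranger 8.0.1 per the file headers, while the submitters' processing notes list Cell Ranger 7.0.0 and GRCm39. The counts are raw and whole. Cells needed 500 UMIs, 300 genes and a mitochondrial share of 20% or less, and doublets called by Scrublet (3.63 to 5.23% of cells) were left out. A cell joined a class with at least 3 of 8 markers and a lead of 2 over any other class. UMIs were summed per library and class. CPM has exact Poisson intervals and ratios have exact conditional binomial intervals, at 95%, covering counting error only, since UMIs of 1 library are not replicates. With 1 library per group no test across samples was possible. The 10 members were named by symbol, and other genes by their lists, by a call past 1.5-fold or by likeness of pattern. Members and lists were chosen with earlier results of these data known. The rule for calling a ratio was tested on simulated Poisson counts with 3-fold changes at microglial sums, which hold no variation between libraries. The other steps were not simulated. Alternatives were clustering (Leiden, resolution 1), thinning to 1000 UMIs, TMM scaling (edgeR 4.0.16), other filters and other folds. Python 3.11.15, scanpy 1.11.5 and R 4.3.3 were used. The list of class I transcription genes is not reported here.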

Additional observations from a re-analysis of the deposited data

Results flagged for a closer look

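3 members were called in opposite directions in different classes of the same comparison, and the difference between the classes was not itself tested. H2-T23 in IL-1a EV over UT EV was called higher in ependymal cells at 3.44 [1.83 to 7.13] and lower in endothelial cells at 0.596 [0.539 to 0.658]. The endothelial call did not hold with clustered classes, doublets kept, thinning or TMM. Psmb8 in IL-4 EV over IL-1a EV was called higher in endothelial cells at 1.74 [1.63 to 1.86], and lower in oligodendrocytes at 0.601 [0.542 to 0.665], in neuroblasts at 0.437 [0.298 to 0.633] and in choroid plexus cells at 0.411 [0.253 to 0.663]. The oligodendrocyte call was made in 3 of the 7 alternatives given below. The neuroblast call did not hold with clustered classes or with doublets kept. The choroid plexus call did not hold with doublets kept, at 0.744, nor with the highest cell floor or TMM. H2-D1 in UT EV over MAPS was called higher in oligodendrocytes at 3.86 [3.61 to 4.14] and in neuroblasts at 2.04 [1.72 to 2.41], and lower in NK cells at 0.517 [0.444 to 0.598]. The neuroblast ratio of H2-D1 was 0.706 with clustered classes and 0.684 when thinned, and its call was also lost with doublets kept. The NK cell call did not hold with TMM, at 0.712. It could not be computed with the stricter gate, clustered classes or thinning.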

How the results depend on the processing

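No paired analysis was possible because each group is 1 library, which leaves a single replicate number. At the 1.5-fold threshold, 7 alternatives changed the cells, counts or scaling (stricter gate, clustered classes, doublets kept, thinning, the highest cell floor, TMM, and totals without mitochondrial, ribosomal and haemoglobin genes). Among EV libraries, the calls that held in each of them that gave a value were H2-T23 and Nlrc5 in microglia, H2-T23, Tap2, Psmb8 and Nlrc5 in endothelial cells and H2-T23 in T cells of IL-4 EV over IL-1a EV, Psmb8 in oligodendrocytes and H2-T23 in ependymal cells of IL-1a EV over UT EV, and H2-D1 in ependymal cells of IL-4 EV over IL-1a EV. In UT EV over MAPS, Psmb8 held likewise in all 9 classes. Of the same 7 alternatives, the call was made in 5 for Tap1 and 6 for Tapbp in endothelial cells of IL-4 EV over IL-1a EV, in 3 for Psmb8 in oligodendrocytes of the same comparison, in 3 for H2-T23 in endothelial cells, 6 for H2-K1 and 5 for H2-D1 in ependymal cells and 6 for Psmb9 in oligodendrocytes of IL-1a EV over UT EV. Nlrc5 in microglia of IL-4 EV over UT EV was 1.83 and not called under the stricter gate. With clustered classes, Psmb8 in neuroblasts of IL-4 EV over IL-1a EV was 1.11, against 0.437, and H2-D1 in neuroblasts of UT EV over MAPS was 0.706, and 0.684 when thinned, against 2.04. Calls numbered 4 in IL-4 EV over UT EV, 10 in IL-1a EV over UT EV, 13 in IL-4 EV over IL-1a EV and 48 in UT EV over MAPS. With clustered classes they were 1, 5 and 20 in the first 3, with the looser fold threshold 10, 19 and 27, with 2-fold 1, 0 and 1, and thinned 0, 1, 6 and 23 in all 4, where 0 of 4, 6 of 10, 9 of 13 and 27 of 48 called pairs could still be computed. For IL-4 EV over UT EV they were 1 with doublets kept, 2 with a 200-UMI filter, which left 2 of the 4 called pairs and both called, and 7 with 4 further classes, added after seeing the data. TMM gave 12 higher and 0 lower in IL-1a EV over UT EV, and 9 and 7 in IL-4 EV over IL-1a EV. The cause of these changes was not tested.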

Other observations

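Classes too small in MAPS to enter the main comparison were computed for the EV libraries alone, after seeing the data. In border macrophages, the macrophages of meninges and vessels, H2-T23 stood at 373 CPM in IL-4 EV, 168 in IL-1a EV and 239 in UT EV, and IL-4 EV was called higher over IL-1a EV at 2.21 [1.77 to 2.77], where 3.26% of all genes were. Tap1 stood at 76.2 CPM in IL-4 EV, 26.0 in IL-1a EV and 41.1 in UT EV, at 2.93 times IL-1a EV [1.69 to 5.26]. In monocyte-like macrophages H2-T23 was 1.92 times IL-1a EV [1.56 to 2.38] and Tap1 2.76 times [1.72 to 4.62], both called higher, where 2.76% of all genes were. In pericytes, the contractile cells around capillaries, H2-K1 stood at 443 CPM in IL-4 EV, 238 in IL-1a EV and 148 in UT EV, at 2.99 times UT EV [1.95 to 4.71], where 3.38% of all genes were called higher. Oligodendrocyte precursors went the other way, with all 4 computed genes below 1 in IL-4 EV over IL-1a EV. Their median log2 ratio was -0.44, against 0.03 for all genes. Over UT EV all 4 lay above 1, with a median of 0.17 against -0.02, and none was called in either comparison.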
